A study of Mus musculus with 26 samples.

Results

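The comparison described here sets leukocytes from the femoral marrow of restrained mice given propranolol against those of home cage controls, within the first of 2 experiments. Its arrays were chosen by their titles, 3 of restraint plus propranolol and 5 of control, so that 8 of the 26 arrays with a group belong to it. All mice were male SCID animals of the strain CB17/Icr-Prkdcscid, 6 to 8 weeks old, which lack mature B and T lymphocytes because of a Prkdc mutation, and all carried an earlier graft of human acute lymphoblastic leukemia, whose cells were gated out in the sort. RNA was amplified, labelled with biotin and hybridised to Illumina MouseRef-8 v2.0 beadchips, arrays with oligonucleotide probes for mouse genes. The labels give neither the dose of propranolol nor the length of the restraint, and they have no group that received propranolol without restraint. They do not say whether each array is a separate mouse, so the p-values below measure a spread between arrays, which may be technical. For the limma tests that spread is pooled within the 6 groups of all 26 arrays, not taken from these 8 alone. The remaining group of the experiment, 5 arrays of restraint without propranolol, is used below for comparison.

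Restraint is a psychological stressor that activates the sympathetic nerves, including those that run into the marrow, and the adrenal glands. Norepinephrine and epinephrine act on leukocytes through beta-adrenergic receptors, which raise cyclic AMP, activate protein kinase A and, through it, the transcription factor CREB, which binds the cAMP response element of genes such as Fos and Nr4a1. Propranolol is a non-selective antagonist of beta-adrenergic receptors, while glucocorticoids from the adrenal act through the receptor Nr3c1, which propranolol does not block.

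The share of probes detected above background was 48.9% ± 2.64 (SD, n = 5) on control arrays and 47.6% ± 1.92 (SD, n = 3) on restraint plus propranolol arrays, a difference of -1.29 percentage points (two-sided exact permutation test, p = 0.50; the smallest p that 56 relabellings allow is 0.0179). Control replicate 5 stood apart, with 44.6% of probes detected, a mean correlation of 0.918 with the other control arrays and an array weight of 0.278. All 5 control arrays lay on the first of 4 slides and all 3 restraint plus propranolol arrays on the second, per the array names in the file headers, so that slide and group cannot be told apart from these arrays alone. The 5 restraint arrays of the experiment were divided, 3 on the first slide and 2 on the second. Only they let a difference between these 2 slides be fitted. The leukocyte and myeloid markers Ptprc, Lyz2, S100a8, S100a9, Mpo and Elane were detected on all 8 arrays, and Spi1, a myeloid transcription factor, on 4 of 5 control arrays and 3 of 3 restraint plus propranolol arrays.

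In restrained mice given propranolol, 50 genes were higher and 15 lower than in controls. The genes that rose included NF-kappaB and inflammatory genes (Rel, Tnf, Icam1, Nlrp3, Cd83), nuclear receptors of the Nr4a family and the cyclic AMP phosphodiesterases Pde4a and Pde4b. Those that fell included the AP-1 subunits Fos and Jun and the phosphatase Dusp1. The 65 genes were 0.602% of the 10792 tested, with 0.463% called up and 0.139% called down (limma, adjusted p under 0.05), and 1036 genes had an unadjusted p under 0.05. Among genes that were called, log2 changes ran from 0.49 to 2.46 upward and from -0.68 to -2.19 downward, and the median over all tested genes was -0.01. The 3 and 5 arrays did not overlap for 1275 genes (11.8%), 604 of them higher (5.6%) and 671 lower (6.22%), and the 65 called genes were among these. Without control replicate 5, 58 genes were called, 49 up and 9 down, of which 45 were among the 65. The count was 6 with slide as a term in the fit, and it was 13 without restraint plus propranolol replicate 2.

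**Figure D1:**
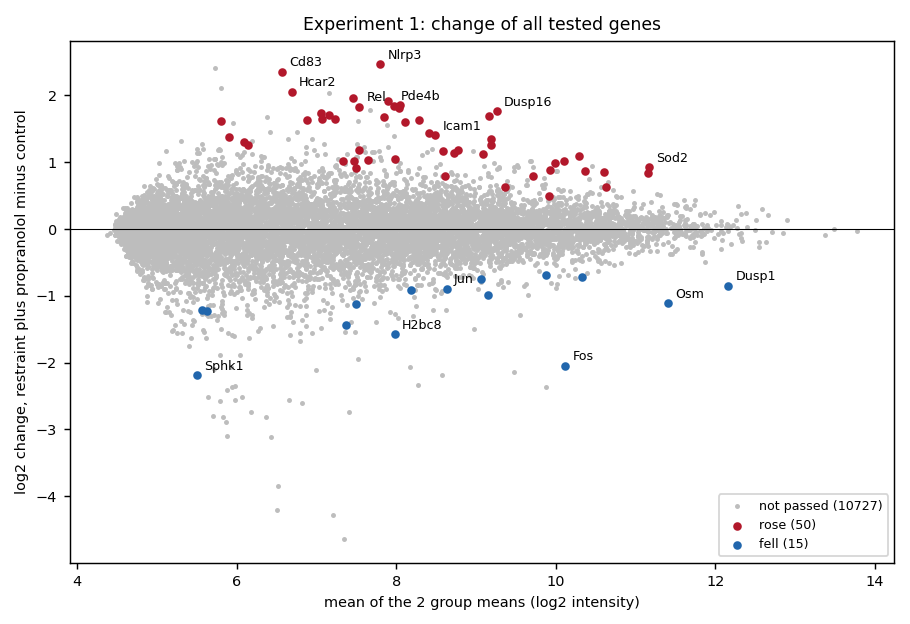
Log2 change in restraint plus propranolol against control of experiment 1 (vertical axis) by mean log2 intensity (horizontal axis) for each of the 10792 tested genes, with the 50 that rose in red and the 15 that fell in blue. The genes that rose reached 2.46 (Nlrp3) and those that fell -2.19 (Sphk1), while a cluster of gray points below -2 did not pass the test.

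Cd83, a surface protein of activated dendritic and B cells, read 5.76, 5.39, 5.80, 4.78 and 5.22 on the 5 control arrays and 7.82, 7.74 and 7.68 on the 3 restraint plus propranolol arrays (log2 intensity). Every restraint plus propranolol array was above every control array, and the change was 2.36 ± 0.26 (log2, SE; limma adjusted p = 3.66e-05), a 5.13-fold difference. Rel, the c-Rel subunit of NF-kappaB, read 7.29, 6.54, 6.18, 6.25 and 6.83 in controls and 8.31, 8.54 and 8.51 with restraint plus propranolol. Its groups were also apart, by 1.83 ± 0.21 on the log2 scale (limma adjusted p = 3.66e-05). Tnf, the cytokine tumor necrosis factor, read 7.46, 7.23, 7.52, 7.23 and 6.20 in controls and 8.69, 9.18 and 8.97 with restraint plus propranolol. The groups did not overlap, and the lowest control value was that of replicate 5. The change of Tnf was 1.82 ± 0.29 (log2, SE; limma adjusted p = 0.00229).

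Nlrp3, the sensor of an inflammasome that matures interleukin 1, had the largest rise and, among the called genes that rose, the least even controls. Its log2 intensity was 6.99, 6.86, 6.81, 7.61 and 4.58 on control arrays and 8.65, 9.54 and 8.91 on restraint plus propranolol arrays. The groups were apart, but control replicate 5 was more than 2 log2 units below the other controls, and the change of 2.46 ± 0.47 (log2, SE; limma adjusted p = 0.0121) includes that array; without it, Nlrp3 changed by 1.97 (limma adjusted p = 0.00839). Icam1, an adhesion molecule for leukocytes, rose by 1.40 ± 0.24 (log2, SE; limma adjusted p = 0.00426). Cd274, the inhibitory ligand PD-L1, read 5.93, 6.36, 5.83, 5.80 and 6.38 in controls and 8.02, 8.52 and 6.54 with restraint plus propranolol; replicate 3 of the latter lay just above the controls. Cd274 rose by 1.63 ± 0.35 (log2, SE; limma adjusted p = 0.0257) and is named here after its values were seen.

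Of the list of cytokines, chemokines and activation ligands, 5 of 29 tested genes rose (Tnf, Nlrp3, Cd83, Icam1, Cd274) and 0 fell, and 22 had a positive change. The list's median was 0.59 (0.56 with genes undetected in a group set at their lower bound, 0.31 in the deposited normalized matrix), against -0.01 over all genes. Il1a was detected on 0 of 5 control and 3 of 3 restraint plus propranolol arrays and was at least 3.76-fold higher there, but did not pass the test (limma adjusted p = 0.245). Il1b and Il6, cytokines of the acute inflammatory response, had changes of 0.65 and 0.83 (log2) that did not pass either (limma adjusted p = 0.522 and 0.50). Il10, an anti-inflammatory cytokine named after its values were seen, was detected on 0 of 5 control and 3 of 3 restraint plus propranolol arrays. Il10 was at least 3.94-fold higher in the latter and did not pass (limma adjusted p = 0.0636). Other sensors and receptors of innate immunity were among the called genes: Cd14 and Tlr2, which recognise bacterial lipopolysaccharide and lipoproteins, rose by 1.61 and 1.17, and Clec4e and Trem1, activating receptors of myeloid cells, by 1.69 and 1.64 (log2). Tlr2, Clec4e and Trem1 are named after their values were seen. Hcar2, a receptor for hydroxybutyrate and niacin, rose by 2.06, and Plaur, the urokinase receptor, by 0.80.

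For the subunits and inhibitors of NF-kappaB, 2 of 15 tested genes rose and 0 fell, while 14 had a positive change and the median was 0.67, or 0.33 in the deposited normalized matrix. The 2 were Rel and Nfkbib, an inhibitor that holds NF-kappaB in the cytoplasm. Nfkbib read 7.20, 6.79, 6.83, 6.74 and 7.20 in controls and 7.92, 8.19 and 7.83 with restraint plus propranolol, without overlap, a change of 1.03 ± 0.22 (log2, SE; limma adjusted p = 0.0257). The list's mean log2 intensity ran from 7.14 to 7.64 on control arrays and from 8.02 to 8.21 on restraint plus propranolol arrays. Zc3h12a, a ribonuclease that degrades inflammatory mRNAs, rose by 1.18 ± 0.20 (log2, SE) and is named after its values were seen. Sod2, the mitochondrial superoxide dismutase, read 10.96, 10.78, 10.65, 10.42 and 10.72 in controls and 11.43, 11.79 and 11.66 with restraint plus propranolol. It rose by 0.92 ± 0.16 (log2, SE; limma adjusted p = 0.00567) and was the only called member of 15 tested antioxidant genes.

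**Figure D2:**
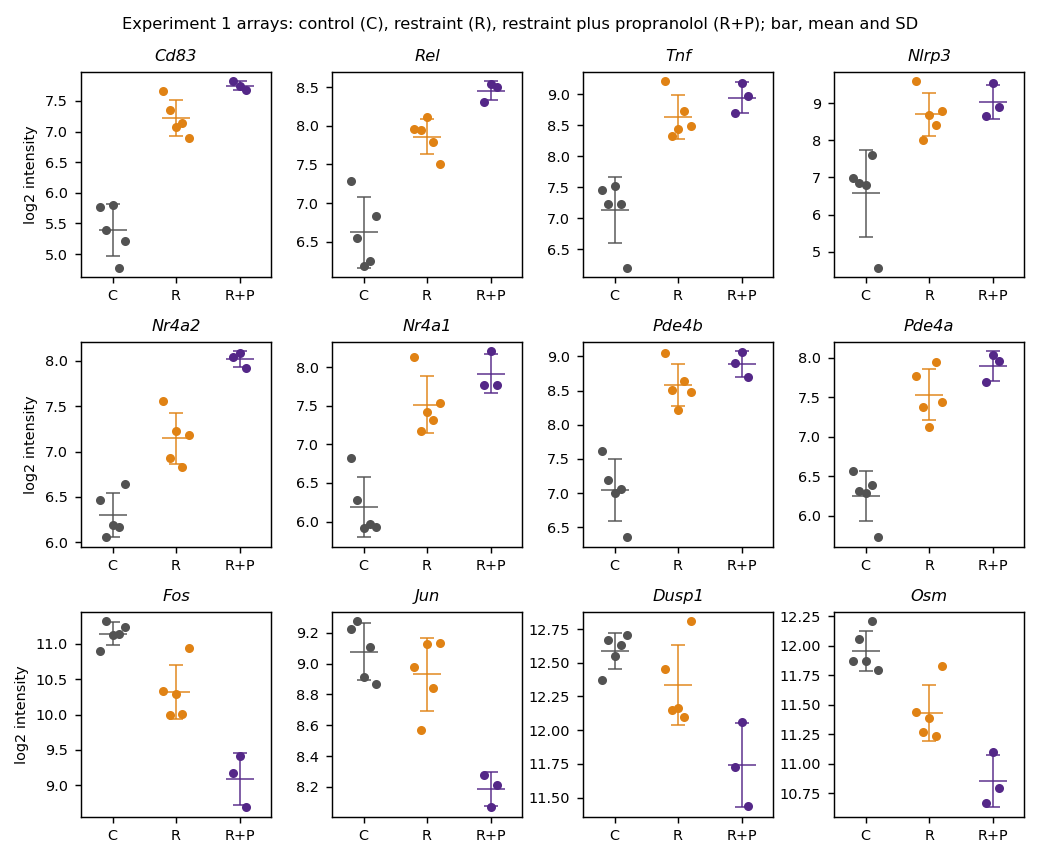
Log2 intensity of 12 genes on each array of experiment 1 for control (C), restraint (R) and restraint plus propranolol (R+P), with the group mean and SD as bars. Cd83, Rel, Tnf, Nlrp3, Nr4a2, Nr4a1, Pde4b and Pde4a were higher on all restraint plus propranolol arrays than on any control array, and Fos, Jun, Dusp1 and Osm were lower.

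Among immediate early genes, which cells induce within minutes of a stimulus, the changes went in opposite directions. Of 25 tested, 3 rose (Nr4a1, Nr4a2, Maff) and 3 fell (Fos, Jun, Dusp1), with a list median of 0.16, or -0.03 with slide in the fit. Nr4a2, an orphan nuclear receptor induced by cyclic AMP, read 6.46, 6.05, 6.20, 6.17 and 6.64 in controls and 8.04, 8.09 and 7.92 with restraint plus propranolol. The 2 groups were far apart for their spread, by 1.71 ± 0.20 (log2, SE; limma adjusted p = 3.66e-05). Its paralog Nr4a1 read 6.83, 6.28, 5.91, 5.97 and 5.93 in controls and 7.77, 8.21 and 7.77 with restraint plus propranolol. Nr4a1 rose by 1.73 ± 0.28 (log2, SE; limma adjusted p = 0.00330), again without overlap. Maff, a small Maf factor that pairs with Nrf2 or AP-1 proteins, rose by 1.44 ± 0.29 (limma adjusted p = 0.0154), although another probe of the gene changed by 0.25.

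Fos read 10.89, 11.32, 11.13, 11.14 and 11.24 on control arrays and 9.18, 9.41 and 8.69 on restraint plus propranolol arrays. All 3 of the latter were below all controls, and Fos fell by 2.05 ± 0.28 on the log2 scale (limma adjusted p = 3.15e-04). Jun, its partner in AP-1, read 9.23, 9.28, 8.91, 9.11 and 8.87 in controls and 8.28, 8.07 and 8.21 with restraint plus propranolol, a smaller fall of -0.89 ± 0.19 (log2, SE; limma adjusted p = 0.0257). Dusp1, a phosphatase that switches off MAP kinases, read 12.38, 12.67, 12.55, 12.64 and 12.71 in controls and 11.73, 12.06 and 11.43 with restraint plus propranolol. The groups of Dusp1 did not overlap, and the change was -0.85 ± 0.19 (log2, SE; limma adjusted p = 0.0328). Fosb, Junb and Egr1, other members of these transcription factor families, had changes of 0.87, 0.40 and -0.37 (log2) that did not pass the test (limma adjusted p = 0.168, 0.869 and 0.399). Dusp16, a phosphatase of the same family as Dusp1, rose by 1.76 ± 0.32 (log2, SE; limma adjusted p = 0.00893), with 0.40 on another of its probes.

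Of the genes of the beta-adrenergic and cyclic AMP pathway, 2 of 27 tested rose and 0 fell, and the list's median was -0.02, against -0.01 over all genes. Both were phosphodiesterases, which break down cyclic AMP and whose transcripts cyclic AMP is known to induce. Pde4b read 7.61, 7.19, 7.001, 7.07 and 6.35 in controls and 8.90, 9.07 and 8.70 with restraint plus propranolol, and rose by 1.84 ± 0.23 (log2, SE; limma adjusted p = 6.92e-05). Pde4a read 6.57, 6.31, 6.29, 6.38 and 5.72 in controls and 7.69, 8.04 and 7.96 with restraint plus propranolol, and rose by 1.64 ± 0.20 (limma adjusted p = 7.97e-05). Neither gene's groups overlapped. The beta-adrenergic receptor genes Adrb1 and Adrb3 were not detected on any array. Adora2b, an adenosine receptor that also raises cyclic AMP, rose by 1.61 ± 0.34 (log2, SE; limma adjusted p = 0.0251), having been detected on 2 of 5 control and 3 of 3 restraint plus propranolol arrays. It is named after its values were seen.

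The cAMP response element, written TGACGTCA, was searched on both strands of the promoter windows from 250 bases before to 50 bases after each gene's start (RefSeq, GRCm38.p6), because it is the site through which CREB acts. Of the called genes, 43 that rose and 13 that fell had a window; 2 of the former (4.65%) and 1 of the latter (7.69%) held it, against 3.39% of the windows of 8439 tested genes. The 3 genes were Maff, Dusp1 and Arl5b, a small GTPase of the secretory pathway that rose by 0.92 ± 0.20 (log2, SE) and is named after its values were seen. Their windows are shown 5′ to 3′ on the strand of the gene, with the element in capitals. They lie at chr15:79347270-79347569 (Maff, plus strand), chr2:15055070-15055369 (Arl5b, plus strand) and chr17:26508423-26508722 (Dusp1, minus strand).
Maff: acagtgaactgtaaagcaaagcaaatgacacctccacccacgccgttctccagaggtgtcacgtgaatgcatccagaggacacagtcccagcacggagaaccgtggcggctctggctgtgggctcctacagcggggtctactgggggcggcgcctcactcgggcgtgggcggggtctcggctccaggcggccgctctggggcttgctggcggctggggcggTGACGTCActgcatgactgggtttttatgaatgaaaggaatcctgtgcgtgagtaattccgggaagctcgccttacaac
Arl5b: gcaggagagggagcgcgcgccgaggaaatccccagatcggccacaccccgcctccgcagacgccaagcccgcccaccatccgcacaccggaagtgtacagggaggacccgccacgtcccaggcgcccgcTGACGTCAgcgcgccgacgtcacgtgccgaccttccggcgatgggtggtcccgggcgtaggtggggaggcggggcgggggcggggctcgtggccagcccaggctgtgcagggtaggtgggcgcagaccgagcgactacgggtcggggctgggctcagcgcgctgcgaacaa
Dusp1: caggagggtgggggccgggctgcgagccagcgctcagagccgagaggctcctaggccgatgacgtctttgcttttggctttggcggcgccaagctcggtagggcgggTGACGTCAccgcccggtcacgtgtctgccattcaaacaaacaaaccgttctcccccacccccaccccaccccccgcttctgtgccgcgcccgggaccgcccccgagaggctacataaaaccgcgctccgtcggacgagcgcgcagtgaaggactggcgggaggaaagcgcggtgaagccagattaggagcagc
Counted from the start site, the element began at position -29 in Maff, -121 in Arl5b and -143 in Dusp1, 2 genes that rose and 1 that fell. The AP-1 element TGANTCA was in the windows of 4 genes that rose (9.30%) and 1 that fell (7.69%), against 6.77% of all. For NF-kappaB only a narrow form of the element was searched, which 0.545% of all windows held. It was in the windows of 0 called genes. A form this rare would most likely be missing from so few windows in any case. The count of 0 therefore does not show that the called genes lack NF-kappaB sites. A match of letters describes the window and does not show binding, and the absence of one covers these exact letters and these 300 bases alone. Sites that differ by a letter were not counted. Fos and Nr4a1 were not among the 3 called genes found with the cAMP response element.

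Of 14 tested genes of the circadian clock, 3 rose (Rora, Per1, Bhlhe40), 0 fell and 11 did not pass the test. The list's median was 0.59, and 0.20 in the deposited normalized matrix. Rora, a nuclear receptor that drives the clock gene Arntl, read 7.16, 6.36, 7.16, 6.92 and 7.10 in controls and 9.17, 8.53 and 8.88 with restraint plus propranolol. It rose by 1.92 ± 0.29 (log2, SE; limma adjusted p = 0.00152) without overlap, but another of its probes changed by -0.17. Per1, a clock repressor that glucocorticoids and cyclic AMP both induce, read 5.72, 5.57, 5.49, 5.91 and 4.90 in controls and 6.53, 7.14 and 6.64 with restraint plus propranolol. Its change was 1.25 ± 0.29 (log2, SE; limma adjusted p = 0.0399). Bhlhe40, a transcriptional repressor of the clock, rose by 0.84 ± 0.17 (limma adjusted p = 0.0208). Times of day of collection are not in the labels, and their part in these values was not tested.

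Of 17 tested glucocorticoid response genes, 2 rose (Per1, Il1r2) and 1 fell (Dusp1), and the median was 0.39, or 0.95 with slide in the fit. Il1r2, a decoy receptor for interleukin 1 that neutrophils carry, read 9.93, 9.60, 9.56, 9.26 and 10.39 in controls and 10.86, 10.80 and 10.86 with restraint plus propranolol, a change of 1.09 ± 0.21 (log2, SE; limma adjusted p = 0.0121). Tsc22d3, the glucocorticoid-induced leucine zipper, had a change of -0.66 ± 0.19 (limma adjusted p = 0.154), and Nr3c1, the receptor, one of 0.32 ± 0.33 (limma adjusted p = 0.869). Of the 17 genes, 13 had a positive and 4 a negative change. The list's mean log2 intensity ran from 8.41 to 8.80 on control arrays and from 9.02 to 9.05 on restraint plus propranolol arrays. The called members did not all share a direction, since Dusp1 fell and Per1 rose.

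The other called genes had no common list. Schip1, a cytoskeletal adaptor, Rhov, a small GTPase, and Gadd45b, a stress-response protein, rose by 1.86, 1.96 and 1.38 (log2), with limma adjusted p of 0.0337, 0.0299 and 0.0179. Another probe of Schip1 changed by 0.39. Osm, the cytokine oncostatin M, read 11.87, 12.06, 11.87, 12.21 and 11.79 in controls and 10.66, 11.10 and 10.79 with restraint plus propranolol. Osm fell by 1.11 ± 0.21 on the log2 scale (limma adjusted p = 0.0116) and went the other way from Tnf. H2bc8, a replication-dependent H2B histone, read 8.84, 8.55, 8.81, 8.72 and 8.94 in controls and 7.13, 6.95 and 7.50 with restraint plus propranolol, and fell by 1.58 ± 0.26 on the log2 scale (limma adjusted p = 0.00406). Srsf7, a splicing factor, fell by 1.43, P2ry1, an ADP receptor, by 0.99, and Mis12, a kinetochore protein, by 0.92. Zfp3, Rwdd4a and LOC100047911 fell by 1.23, 1.13 and 1.22 (log2), with limma adjusted p of 0.0295, 0.0375 and 0.0295. Sphk1, which makes sphingosine 1-phosphate, was detected on 5 of 5 control and 0 of 3 restraint plus propranolol arrays and was at least 3.00-fold lower in the latter (limma adjusted p = 0.0496), although a second probe gave -0.06. Its control values were uneven, at 5.33, 7.72, 5.06, 7.89 and 6.96.

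A further 20 called genes are named here after their values were seen. Skil and Rasgef1b rose by 1.25 and 1.30, Mapk6, an atypical MAP kinase, by 1.18, Marcksl1 by 1.14 and Fbxl5, a subunit of an iron-sensing ubiquitin ligase, by 1.12 (log2). Lilr4b, a receptor of myeloid cells, Cpeb2, Stfa1 and Themis2 rose by 1.01 to 1.04, and Ets2, a transcription factor of the Ets family, by 0.99. Ccng2, Emp1, Arhgef3, Samsn1, Necap1, Litaf and Zfp263 rose by 0.49 to 0.88. Nme7, Rhob, an immediate early small GTPase, and Crk, a signalling adaptor, fell by 0.75, 0.72 and 0.68. Other probes of the same gene disagreed for Crk (0.69), Nme7 (0.04) and Marcksl1 (0.01), and the lowest probe of Necap1 gave 0.25.

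Markers of the red cell and B lineages were lower with restraint plus propranolol, though none passed the test, and the controls differed widely. In bulk RNA, fewer cells of a type and less RNA per cell cannot be told apart. Of 33 tested erythroid genes, 32 had a negative change, 0 were called, 12 were not detected on any restraint plus propranolol array, and the median was -1.30 (-0.54 in the deposited normalized matrix). The list's mean log2 intensity was 7.51, 8.48, 6.00, 8.59 and 7.54 on the control arrays and 6.04, 6.19 and 5.95 on the restraint plus propranolol arrays. Control replicate 3 lay within the range of the latter. Alas2, the first enzyme of heme synthesis in red cells, read 9.48, 10.12, 5.26, 10.19 and 8.82 in controls and 5.87, 6.43 and 5.79 with restraint plus propranolol (limma adjusted p = 0.419). Klf1, the master regulator of erythroid genes, and Ermap, an erythroid membrane protein, were detected on 4 of 5 control and 0 of 3 restraint plus propranolol arrays. Their group means were at least 4.99-fold and 5.81-fold lower in the latter (limma adjusted p = 0.212 and 0.169). Control replicate 3 read 4.54 for Klf1, below the 3 restraint plus propranolol arrays, and 4.82 for Ermap, within their range.

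For the B lineage, 11 of 13 tested markers had a negative change, 0 were called and the median was -0.65 (-0.32 with undetected genes at their bound, -0.19 in the deposited normalized matrix). The list's mean was 6.22, 7.01, 5.85, 7.12 and 6.26 in controls and 5.67, 5.62 and 5.67 with restraint plus propranolol, without overlap. Rag1, the recombinase of lymphocyte precursors, was detected on 0 of 3 restraint plus propranolol arrays and was at least 4.34-fold lower (limma adjusted p = 0.168). The mature neutrophil markers had a mean of 10.54 to 10.89 in controls and 11.05 to 11.10 with restraint plus propranolol, and 1 of 10 (Il1r2) rose. On restraint arrays that mean was 10.84, 10.50 and 10.825 on the first slide. It was 11.05 and 11.04 on the second, which held all restraint plus propranolol arrays. The list's median change was 0.20, or 0.10 with slide in the fit, and -0.12 in the second experiment. Granule and calprotectin genes of neutrophils, Mpo, Elane and S100a8, changed by -0.07, 0.09 and 0.22 (log2), with limma adjusted p from 0.696 to 0.968. Of 10 tested monocyte markers, 1 (Cd14) rose, and the median was 0.04. The part of these lineage markers in the other gene changes was not tested.

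**Figure D3:**
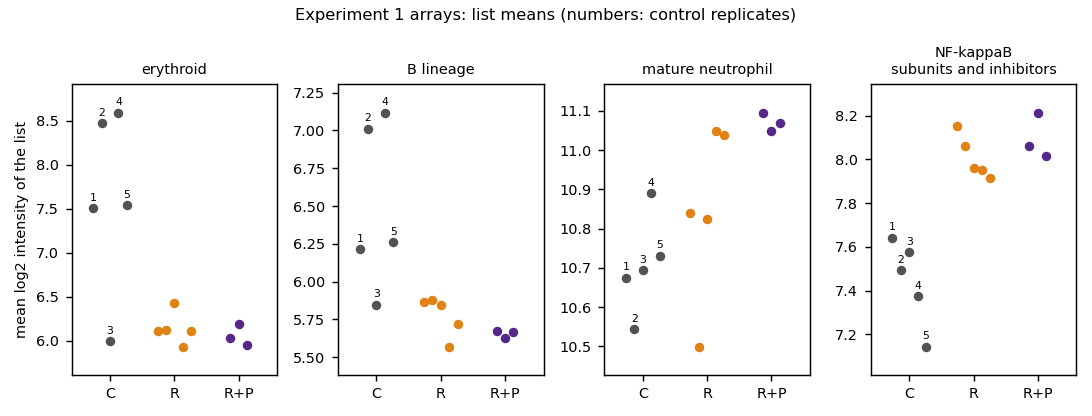
Mean log2 intensity of 4 gene lists on each array of experiment 1 (control C, restraint R, restraint plus propranolol R+P), with control replicates numbered. Erythroid means were 5.95 to 6.19 on restraint plus propranolol arrays and 6.00 to 8.59 on control arrays, and NF-kappaB means were 8.02 to 8.21 and 7.14 to 7.64.

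DNA repair genes were a subject of the study's own analysis. Over 5 repair lists together, 93 of 109 genes were tested, 0 rose and 0 fell (limma, adjusted p under 0.05), 9 had an unadjusted p under 0.05, and 68 (73.1%) had a negative change, against 51.7% of all tested genes. The median was -0.18. For homologous recombination and Fanconi genes 23 of 26 changes were negative, with a median of -0.24. Rad52, a recombination mediator, had the smallest p there, with a change of -1.14 ± 0.32 (log2, SE; limma adjusted p = 0.139). Parp1, a sensor of strand breaks, changed by -0.50 ± 0.17 (limma adjusted p = 0.239), with -0.003 on another of its probes. Prkdc, the kinase of end joining that is mutated in these mice, changed by 0.14 ± 0.17 (limma adjusted p = 0.901). Proliferation genes were similar: 0 of 39 were called, 34 had a negative change and the median was -0.18. The erythroid and B lineage markers moved in the same direction across these arrays, and their part in the repair and proliferation values was not tested.

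Of 34 tested secretory factors of senescent cells, 2 rose (Icam1 and Plaur), 0 fell and the median was 0.25. Of 23 tested cell cycle inhibitors and targets of p53, 1 rose (Gadd45b) and the median was 0.22. Cdkn1a, the p21 inhibitor of cell division, had a change of 1.03 ± 0.28 (log2, SE; limma adjusted p = 0.128), and Trp53 one of -0.19 ± 0.25 (limma adjusted p = 0.917). Type I interferon response genes had 0 of 25 called and a median of -0.15, and MHC class II genes 0 of 10 and 0.31. The remaining marker lists had 0 called members: T cell, NK cell, macrophage, dendritic cell, megakaryocyte and platelet, primary and secondary neutrophil granule, eosinophil, basophil and mast cell, stem and progenitor, stromal, and osteoclast. Their medians ran from -0.21 (stem and progenitor) to 0.34 (eosinophil, basophil and mast cell). Heat shock chaperones (0 of 16 called) and genes of marrow retention and egress (0 of 10) had medians of -0.12 and 0.05.

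**Figure D4:**
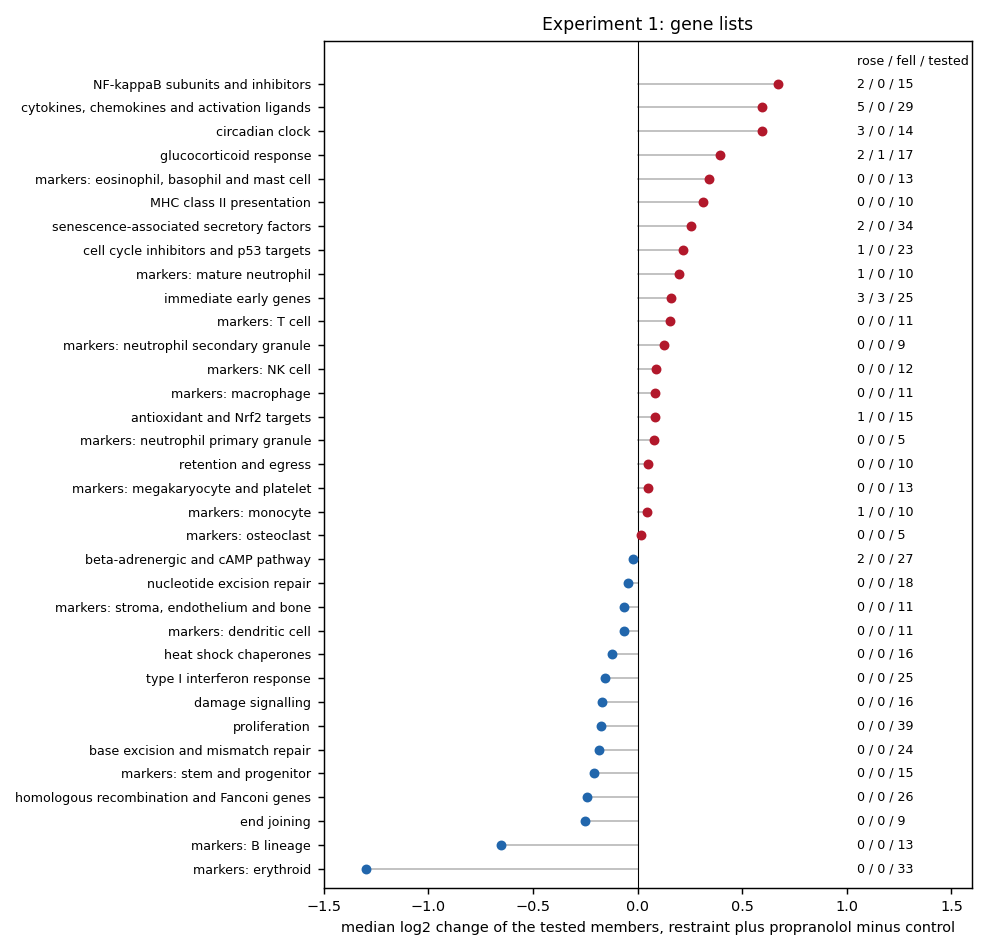
Median log2 change, restraint plus propranolol minus control of experiment 1, over the tested members of each of 34 gene lists, with the numbers that rose, fell and were tested at the right. The medians ran from 0.67 (NF-kappaB, 0.33 in the deposited normalized matrix) to -1.30 (erythroid markers), and the list with most called members was that of immediate early genes, with 3 up and 3 down.

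Restraint without propranolol gives the closest comparison, since it shares the stressor. Set against the same 5 control arrays, restraint alone gave 35 called genes (0.324% of those tested), 30 up (0.278%) and 5 down (0.0463%). The 2 comparisons share those control arrays, so their changes are given side by side only. Cd83 changed by 1.84 under restraint and 2.36 under restraint plus propranolol, Pde4b by 1.54 and 1.84, Nr4a1 by 1.33 and 1.73, and Tnf by 1.51 and 1.82 (log2). For the 50 genes that rose with restraint plus propranolol, the median change was 0.90 under restraint and 1.27 with propranolol. For the 15 that fell it was -0.65 and -1.11. These genes had been chosen on the restraint plus propranolol values, which favors larger medians there, so the medians do not compare the 2 conditions.

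Compared directly, restraint plus propranolol and restraint differed in 0 genes (limma, smallest adjusted p = 0.462), and 257 genes had an unadjusted p under 0.05. Fos read 10.34, 9.996, 10.29, 10.01 and 10.93 on restraint arrays, between the controls and the restraint plus propranolol arrays for 4 of 5, and the direct difference was -1.22 ± 0.28 (log2, SE; limma adjusted p = 0.462). Nr4a2 read 7.56, 6.93, 7.22, 6.83 and 7.18 on restraint arrays, all above the controls and all below the 3 restraint plus propranolol arrays. Its difference was 0.87 ± 0.20 (log2, SE; limma adjusted p = 0.462). Differences of -0.74 for Jun, -1.12 for H2bc8 and -0.69 for Egr1 did not pass the test either (limma adjusted p = 0.915, 0.525 and 0.462). Rabgef1, a regulator of endosomal Rab5 named after its values were seen, was 1.64 ± 0.35 (log2, SE) above control and 1.64 above restraint. The erythroid list was low in both groups, at 5.93 to 6.43 on restraint arrays. With arrays weighted by their quality, 12 genes passed, 3 higher and 9 lower, Fos (-1.31), H2bc8 (-1.19), Egr1 (-0.72), Jun (-0.78) and Nr4a2 (0.86) among them.

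In the second experiment, which shares no array with the first, 102 genes were called between restraint plus propranolol and control (0.945%), 45 up (0.417%) and 57 down (0.528%). It held the arrays of lowest weight, restraint plus propranolol replicate 3 (0.155) and control replicate 4 (0.199). Its control arrays lay on slides 2 and 3 and its restraint plus propranolol arrays on slides 3 and 4. Over all tested genes, the changes of the 2 experiments had a correlation of 0.444. Of the 50 genes that rose in the first experiment, 49 had the same direction in the second and 22 were called there, 44.0% of the first list and 48.9% of the second. Of the 15 that fell, 13 had the same direction and 4 were called, 26.7% and 7.02% of the lists. The median change of the 50 was 1.27 in the first and 0.90 in the second experiment, and that of the 15 was -1.11 and -0.43; the 65 genes had been chosen on the first experiment's values. Cd83 changed by 1.52, Hcar2 by 2.33, Rora by 1.55 and Fos by -1.31 in the second experiment, each past the test there (limma adjusted p = 0.00585, 0.00989, 0.0145 and 0.0233). Nr4a1 changed by -0.32 and Sphk1 by 0.44 there, against 1.73 and -2.19 in the first.

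The difference between the experiments was itself tested, and 0 genes passed (limma, smallest adjusted p = 0.455), with 573 at an unadjusted p under 0.05. Nr4a1 had the largest such difference among the named genes that rose, 2.06 ± 0.40 (log2, SE; limma adjusted p = 0.455). Of the 65 called genes, 15 that rose and 6 that fell had an unadjusted p under 0.05 for that difference. A p that misses the threshold does not show that the experiments had the same change.

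With slide as a term in the fit, 6 of the 65 genes were called, all higher: Cd83, Rel, Nr4a2, Rora, Tgif1 and Icam1. All 65 kept their direction, and the median change was 1.45 for the 50 genes and -1.11 for the 15. Cd83 changed by 2.70 ± 0.38 and Rel by 2.19 in that fit (limma adjusted p = 0.00784 for each), while Fos changed by -2.31 ± 0.44 and did not pass (limma adjusted p = 0.0569). Between the 2 restraint arrays on the second slide and the 3 on the first, the 50 genes differed by a median of -0.18 (log2; from -0.80 to 0.27, the latter for Pde4a). For the 15 genes that fell, that median was 0.12 (-0.53 to 0.38). These are 2 against 3 arrays, and for the difference between the first 2 slides the fit with slide rests on them alone. Its changes are the changes against control less the difference between these restraint arrays, so the 2 are not separate results. The part of slide in the changes against control was not tested otherwise. Tgif1, a repressor of TGF-beta signalling named after its values were seen, rose by 1.35 ± 0.21 (log2, SE) in the fit without slide.

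**Figure D5:**
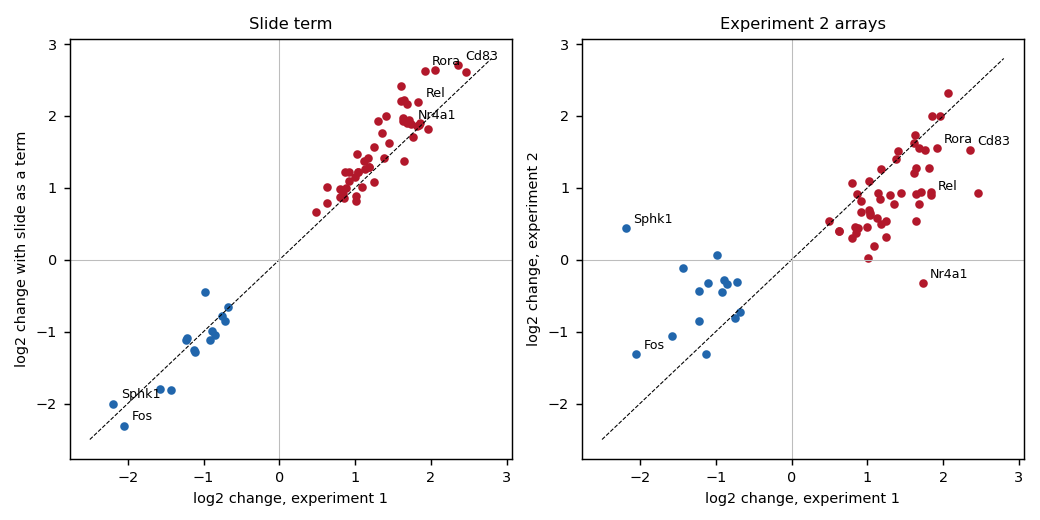
Log2 change of the 65 called genes of experiment 1 (horizontal axes) against their change with slide as a term in the fit (left) and in experiment 2 (right), with red for genes that rose, blue for those that fell and a dashed line at equal change. In the slide fit all 65 genes kept their direction, and in experiment 2 it was kept by 49 of 50 and 13 of 15, with Nr4a1 (-0.32) and Sphk1 (0.44) among the exceptions.

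Leaving out arrays changed how many genes passed. Without control replicates 1 to 5 in turn the count was 50, 39, 99, 41 and 58, and without restraint plus propranolol replicates 1 to 3 it was 25, 13 and 22. The genes called in all 8 of these fits were Cd83, Fos, Hilpda, Nr4a2, Pde4a, Pde4b, Rel, Rora, Tgif1, Tnf and Zc3h12a, 11 in all; each of the others lost its call in at least 1 fit, and Crk and Zfp263 in all 8. Hilpda, a lipid droplet protein induced by hypoxia and named after its values were seen, rose by 1.68 ± 0.27 (log2, SE; limma adjusted p = 0.00250).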

How the data were processed

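Per the labels' protocols, RNA of sorted marrow leukocytes was amplified and biotin-labelled with NuGEN kits and hybridised to Illumina beadchips; GenomeStudio is the tool named in the submitters' processing notes, with no version. The raw matrix that the authors deposited holds bead intensity per probe and array, neither background-subtracted nor scaled (lowest value 96), and, per the file headers, a detection p-value. The normalized intensity matrix that the authors deposited, whose method is not given in the sources used here, served as an alternative. The raw matrix holds 6 further arrays that no label assigns to a group; they were not used.

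Here the deposited intensities were background-corrected, quantile normalized and put on a log2 scale with limma's neqc (offset 16). A probe was kept if its detection p was under 0.05 on 3 or more of the 26 arrays (15061 of 25697). They stood for 10792 genes, named by Entrez identifier, accession or symbol, each represented by its brightest kept probe. A model with 6 groups (3 conditions in each of 2 experiments) was fitted to all 26 arrays with limma 3.58.1 (R 4.3.3), with p-values adjusted by Benjamini-Hochberg over all kept probes and genes called at adjusted p under 0.05. A change is a difference of group means of log2 intensity. Where no array of a group detected a gene, its fold is a lower bound, the mean of the other group against the lowest signal called detected on each array. The number of arrays limits the precision. The fit was tested on simulated data. Figures were drawn with matplotlib 3.10.9.

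Named genes were the 12 largest rises and falls among called genes, up to 4 called members of each of 34 lists (or the member of smallest p) and a fixed set; genes outside the rule are marked as such, and 2 genes of the fixed set are not reported here. Members, lists and tests were chosen with earlier results of these data known. Alternatives were arrays of experiment 1 alone, the 8 arrays alone, slide as a fixed term or random block, replicate number as a block, array weights, other scaling, background, filters, probe summary and thresholds, the deposited normalized matrix, and each array left out. The deviations of same-numbered arrays had correlations of 0.07, 0.11 and -0.07, within the range of the other pairs (-0.246 to 0.211). So few arrays cannot exclude a pairing by number, and the arrays were treated as unpaired.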

Additional observations from a re-analysis of the deposited data

Results flagged for a closer look

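Of 111 quantities tested on the 5 control arrays (76 named genes, 34 list means and the share of detected probes), 7 had an array far from the rest, with a gap above 0.71 of the whole range; chance gives about 1 in 20. Control replicate 5 was low for Nlrp3, at 4.58 (log2 intensity) against 6.81 to 7.61 on the other 4, and for Tnf, at 6.20 against 7.23 to 7.52. It was also low for the mean of the cell cycle inhibitors and p53 targets, at 7.64 against 7.92 to 7.98. Control replicate 4 was low for Dusp16, at 7.12 against 8.39 to 8.87, and high for the mean of the T cell markers, at 6.95 against 5.70 to 6.00. Control replicate 3 was low for Alas2, at 5.26 against 8.82 to 10.19, and control replicate 2 was low for the mean of the neutrophil secondary granule markers, at 10.76, with 11.05 the highest of the other 4. Without the array that stood apart, the control mean was 7.07 for Nlrp3, 7.36 for Tnf, 8.70 for Dusp16 and 9.65 for Alas2.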

How the results depend on the processing

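The count of 65 genes varied with the fit. All 65 kept their sign in every alternative run, except 1 when probes were averaged per gene (64). For many of these runs the sign was fixed beforehand, since the groups did not overlap for any of the 65 genes. Leaving out or weighting arrays could not reverse such a gene, and fits to fewer groups kept its difference of group means. A sign could change only where the intensities, the probes or the terms for slide or replicate number differed. The count was 109 with the 13 arrays of experiment 1 alone (70 up, 39 down), 892 with array weights (430 up, 462 down), 23 with median scaling (16 up, 7 down) and 6 with slide as a fixed term (6 up, 0 down). It was 25 with the replicate number as a block (21 up, 4 down), where a pairing by number is not known. It was 145 without the 3 arrays of lowest weight (98 up, 47 down), an alternative chosen after seeing the data. Leaving out 1 array at a time gave 13 to 99. With the 8 arrays of the 2 groups alone the count was 63 (46 up, 17 down), and only 36 of these were among the 65 genes. The other alternatives gave 58 to 97, the latter at adjusted p under 0.1. The difference between experiments had 1 call with slide as a term (Kndc1, -3.28) and 0 otherwise, and restraint plus propranolol against restraint had 12 with array weights and 0 otherwise. Under the same limit on signs, 515 gene-by-alternative values of the named genes that were called kept their call, 220 lost it and 0 changed sign. The cause of these differences was not tested, beyond there being fewer arrays in those fits that leave some out. Of the list medians, 667 moved by less than the SD of control arrays and 47 by more, the NF-kappaB median among them (0.33 in the deposited normalized matrix and 0.34 without background correction). Signal over background limits the erythroid and B lineage genes undetected with restraint plus propranolol to bounds.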
